A study of Xenopus tropicalis with 11 samples.

Results

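The comparison described here sets the Cenp-a pull-down of *X. tropicalis* chromatin against the pull-down with unspecific rabbit IgG. It uses 4 of the 11 libraries of the series, Cenp-a replicates 2 and 3 and IgG replicates 2 and 3, chosen by antibody and paired by replicate number; replicate 1 has no IgG library and was left out. All 4 were made from XTN-6 cells, a line established from dissociated wild type embryos of the NXR Nigerian strain, which is also the strain that the labels give. The labels list whole tadpoles at stage NF 20 as the cell type beside XTN-6 cells as the source, and the methods of the study describe the cell line. Mononucleosomes were prepared by digestion with micrococcal nuclease (MNase), precleared on Protein A beads and precipitated without crosslinking, with a rabbit antibody raised against *X. laevis* Cenp-a that cross-reacts with the *X. tropicalis* protein, or with whole rabbit IgG from Jackson ImmunoResearch. Neither group carries a treatment, and the groups differ in the antibody. The study calls the replicates technical and the labels call them biological, so the spread between them need not cover differences between separate cultures, and all libraries come from 1 cell line. The libraries hold genomic DNA, so the identity of the cells could not be read from marker genes.

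Cenp-a is the histone H3 variant that replaces H3 in the nucleosomes of centromeres. It is the foundation on which the kinetochore assembles, and in most vertebrates it sits on long arrays of tandem satellite repeats. Whole rabbit IgG is not directed at any histone, so its pull-down measures unspecific recovery of chromatin. The question addressed by the comparison is therefore where chromatin was recovered with the Cenp-a antibody beyond this background.

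Each library was deposited as raw read counts over 145051 non-overlapping bins of 10 kb, of which 144914 lie on 10 chromosomes and 137 on 47 unplaced scaffolds. Positions are those of the deposited table, on the v10 assembly. The libraries hold 13576415 (Cenp-a replicate 2), 229872947 (Cenp-a replicate 3), 4053600 (IgG replicate 2) and 107881690 (IgG replicate 3) counts, with medians of 82, 1371, 24 and 639 counts per bin. IgG replicate 3 is thus 26.6 times as deep as IgG replicate 2, in which 1 CPM (a count per 1e6 counts on the chromosomes) is only 4.05 counts. Outside centromeres the log2 ratio of Cenp-a to IgG in single bins had a standard deviation of 0.531 in replicate 2 and 0.203 in replicate 3. Counting alone would give a median standard deviation of 0.336 and 0.0693 if each count were independent, and more where a read pair gave 2 counts. For this reason values are given per replicate below, with 0.1 CPM added to both CPM values of a ratio in a single bin.

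To find out whether the centromeric signal of Cenp-a stood above the IgG pull-down in samples that had not been used to locate it, the centromere cores were located with replicate 1 alone, as the bins at least 5-fold higher in Cenp-a than in input of that replicate, joined at up to 200 kb. On each chromosome the joined group with the largest summed excess was taken as its core. The cores have 3 to 25 bins and together hold 90 bins, which is 0.0621% of the bins on chromosomes. Of these, 75 passed the limit themselves, and the others lie in gaps between them that the joining filled. The same limit was passed by 5 bins outside the cores, with 1 on chromosome 2, 3 on chromosome 4 and 1 on chromosome 6. Cenp-a was far above IgG in these cores in both replicates. The cores took up 1.19% of the Cenp-a counts on chromosomes in replicate 2 (Wilson 95% confidence interval 1.19% to 1.20%) and 1.58% in replicate 3 (1.58% to 1.58%). They took up 0.198% of the IgG counts in replicate 2 (0.194% to 0.202%) and 0.202% in replicate 3 (0.201% to 0.203%). These intervals cover counting error only. The ratio of Cenp-a to IgG was 6.03 in replicate 2 and 7.82 in replicate 3, with a mean of 6.93 ± 1.27 (SD, n = 2). Both ratios lie far above 1, although an exact two-sided sign-flip test over 2 pairs gives p = 0.5, the smallest value that the design allows. The excess over IgG in the cores amounted to 0.995% of all Cenp-a counts on chromosomes in replicate 2 and 1.38% in replicate 3, so most reads of both Cenp-a libraries lie elsewhere.

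Single bins were compared by the quasi-likelihood test of edgeR, blocked by replicate, for the 144741 bins that reached 10 counts in 50% or more of the 4 libraries. Calls needed a difference of at least 5-fold and an adjusted p-value (Benjamini-Hochberg, all tested bins) under 0.05. By this rule 73 bins were higher in Cenp-a than in IgG, which is 0.0504% of the bins tested. All 73 were core bins that had themselves passed the limit in replicate 1, as 75 of the 90 core bins did. Thus 81.1% of the 90 core bins and 0 of the bins elsewhere were called. Their log2 fold changes ran from 2.34 to 4.95 with standard errors from 0.0858 to 0.407, and the largest adjusted p-value among them was 2.01e-07 (edgeR's quasi-likelihood test). The ratio was at least 5 in both replicates in 54 of the 73 bins. Its median was 6.39 in replicate 2 and 8.04 in replicate 3, and it was larger in replicate 3 in 63 of 73.

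At 5-fold, 0 bins were called lower in Cenp-a (0% of the bins tested by edgeR), and by DESeq2 likewise 0. Of the 144741 bins tested, 5770 that were lower and 3493 that were higher had an unadjusted p under 0.05 (edgeR's quasi-likelihood test). Among so many bins this limit is passed by many without any difference, so these 2 counts are not read as a result. The number of calls depends on the fold limit. At an adjusted p under 0.05 and at least 2-fold, 108 bins were higher (0.0746% of the bins tested) and 2 lower (0.00138%). With no fold minimum, 249 were higher (0.172%) and 510 lower (0.352%). These last counts depend on the fit, with 179 higher and 173 lower without the replicate block, and 151 higher and 749 lower with DESeq2.

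Of the 10 cores, those of chromosomes 10 and 3 stood highest above IgG. The ratio was 10.4 in replicate 2 and 13.9 in replicate 3 on chromosome 10 (21191474 to 21271473), and 10.0 and 14.3 on chromosome 3 (16700983 to 16770982). They were followed by chromosome 9 (42103438 to 42153437) with 8.66 and 11.8, and by chromosome 4 (46563929 to 46593928) with 8.62 and 11.7. Within each of these pairs the 2 cores differed by less than the 2 replicates of either. A middle group was formed by chromosomes 5, 6, 2 and 8. The ratio was 6.01 in replicate 2 and 8.10 in replicate 3 on chromosome 5 (61984911 to 62044910), 6.03 and 8.06 on chromosome 6 (73065893 to 73115892), 5.95 and 7.40 on chromosome 2 (67455402 to 67565401), and 6.12 and 7.18 on chromosome 8 (21351474 to 21521473). In replicate 2 these 4 cores lay between 5.95 and 6.12 and their counting intervals overlapped. The lowest ratios were those of chromosome 1 (89207366 to 89237365), with 5.24 and 6.16, and of chromosome 7 (60264911 to 60514910), with 3.89 and 5.05. The span of chromosome 7 includes 10 bins that were not called. In its 15 called bins, which were picked for high ratios, the ratio was 6.53 and 8.35, beside 6.39 and 8.40 in those of chromosome 6. The last rank of chromosome 7 thus depends on how its core was bounded. The order was much alike in the replicates (Spearman's rho 0.903 and Pearson's r 0.991 over the 10 cores, given as a description).

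**Figure D1:**
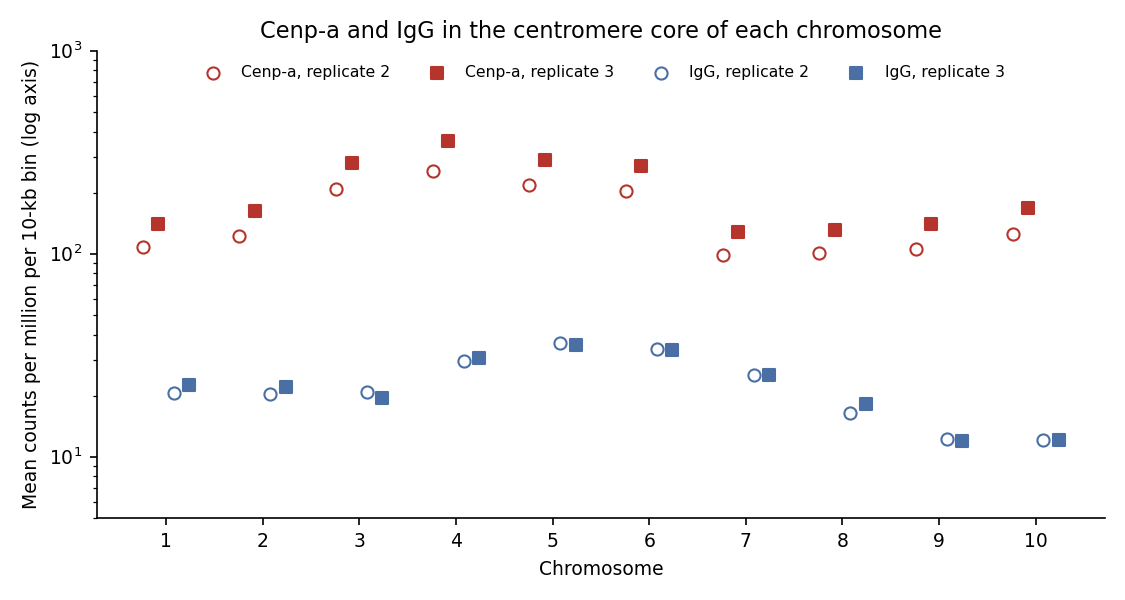
Mean CPM per 10-kb bin (log axis) in the centromere core of each chromosome, for Cenp-a (red) and IgG (blue), with open circles for replicate 2 and filled squares for replicate 3. Every Cenp-a point lies above both IgG points of its chromosome, with 98.4 to 256.6 CPM per bin in Cenp-a replicate 2 and 127.3 to 359.5 in Cenp-a replicate 3, against 12.0 to 36.2 in IgG replicate 2 and 12.0 to 35.7 in IgG replicate 3.

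The levels behind these ratios vary from core to core in both antibodies, as the plot of mean CPM by chromosome shows. On chromosome 4 a core bin held on average 256.6 CPM in Cenp-a replicate 2 and 359.5 CPM in Cenp-a replicate 3, against 29.8 CPM in IgG replicate 2 and 30.8 CPM in IgG replicate 3. On chromosome 10 it held 125.5 and 167.6 CPM in Cenp-a replicates 2 and 3, against 12.0 and 12.0 CPM in IgG replicates 2 and 3. The core of chromosome 10 therefore had the higher ratio with the lower level of both. IgG itself was above its median bin in every core, from 2.03 times on chromosome 10 to 6.12 times on chromosome 5 in replicate 2, and from 2.02 times on chromosome 9 to 6.02 times on chromosome 5 in replicate 3. The counts include reads of every mapping quality, so that reads of 1 satellite array may have been assigned to another, which limits comparisons between cores.

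Replicate 3 gave the higher ratio in 10 of 10 cores, by a factor of 1.17 on chromosome 8 to 1.42 on chromosome 3. The 95% counting intervals of the replicates did not overlap in any of them. These intervals take each count as independent. A read pair can contribute 2 counts, so they may be too narrow to separate the replicates in every core. The IgG levels of the cores differed less between the replicates. On chromosome 3 they were 20.9 and 19.5 CPM per bin in replicates 2 and 3, while Cenp-a had 209.6 and 278.5 CPM. Depth differs between the replicates too, so the antibody reaction and the depth cannot be told apart. Over input, which shares the Cenp-a libraries with the comparison to IgG, the ratios of the cores ran from 4.19 to 10.9 in replicate 2 and from 5.20 to 15.5 in replicate 3. Over IgG they ran from 3.89 to 10.4 and from 5.05 to 14.3.

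The largest log2 fold change of all bins tested was that of the bin on chromosome 3 from 16710983 to 16720982. It held 4309 counts in Cenp-a replicate 2 and 91675 in Cenp-a replicate 3, against 59 counts in IgG replicate 2 and 1237 in IgG replicate 3. The ratio was 21.7 in replicate 2 and 34.5 in replicate 3, and the log2 fold change was 4.95 (standard error 0.107). Both Cenp-a values lay more than 20-fold above their IgG partner. The highest bin of the core of chromosome 2 (67535402 to 67545401) held 2590 and 60790 counts in Cenp-a replicates 2 and 3, against 44 and 1672 counts in IgG replicates 2 and 3, with a log2 fold change of 4.10. That of chromosome 7 (60384911 to 60394910) held 6403 and 145422 Cenp-a counts, against 116 and 3946 IgG counts, with a log2 fold change of 4.09. In both of these bins the replicates gave nearly the same ratio, 17.4 and 17.0 on chromosome 2 and 16.4 and 17.2 on chromosome 7.

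On chromosome 10 the bin from 21201474 to 21211473 held the most Cenp-a of all highest bins, with 7973 and 183300 counts in Cenp-a replicates 2 and 3, against 178 and 5043 counts in IgG replicates 2 and 3, and a log2 fold change of 3.96. Its IgG level was 7.42 times the median bin in replicate 2, so the bin held many reads in both pull-downs. On chromosome 9 the highest bin (42123438 to 42133437, log2 fold change 3.87) lay at an IgG level of 0.708 times the median bin in replicate 2 and 1.19 times in replicate 3, with 1043 and 22797 Cenp-a counts against 17 and 763 IgG counts. The highest bins of chromosomes 4 (46563929 to 46573928), 6 (73085893 to 73095892), 5 (61984911 to 61994910) and 1 (89227366 to 89237365) had log2 fold changes of 3.71, 3.22, 3.08 and 2.71. A long noncoding RNA gene, LOC116406480, reaches into the bin on chromosome 4.

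The highest bin of chromosome 8 (21371474 to 21381473) rests on few counts. It held 61 and 1149 counts in Cenp-a replicates 2 and 3, against 4 and 41 counts in IgG replicates 2 and 3. The log2 fold change was 3.48 with a standard error of 0.39. The ratio was 4.23 in replicate 2 (95% counting interval 1.69 to 17.2, without the added 0.1 CPM) and 10.6 in replicate 3, so it was not at least 5-fold in replicate 2 alone. In the same core the bin from 21411474 to 21421473 had the lowest replicate 2 ratio of the 73 called bins. It held 47 and 792 Cenp-a counts against 8 and 42 IgG counts, with ratios of 1.72 and 7.25. On chromosome 7 the bin from 60304911 to 60314910 held 107 and 2363 Cenp-a counts, against 0 and 159 IgG counts. Set against 3 counts in place of the 0, Cenp-a was 10.6-fold higher there in replicate 2, which leaves out the counting error of Cenp-a. The lower 95% counting limit of the ratio was 8.51 in replicate 2, and Cenp-a was 6.59-fold higher in replicate 3. Among the 72 called bins with an IgG count in replicate 2, the replicate 2 ratio was 21.7 at most.

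**Figure D2:**
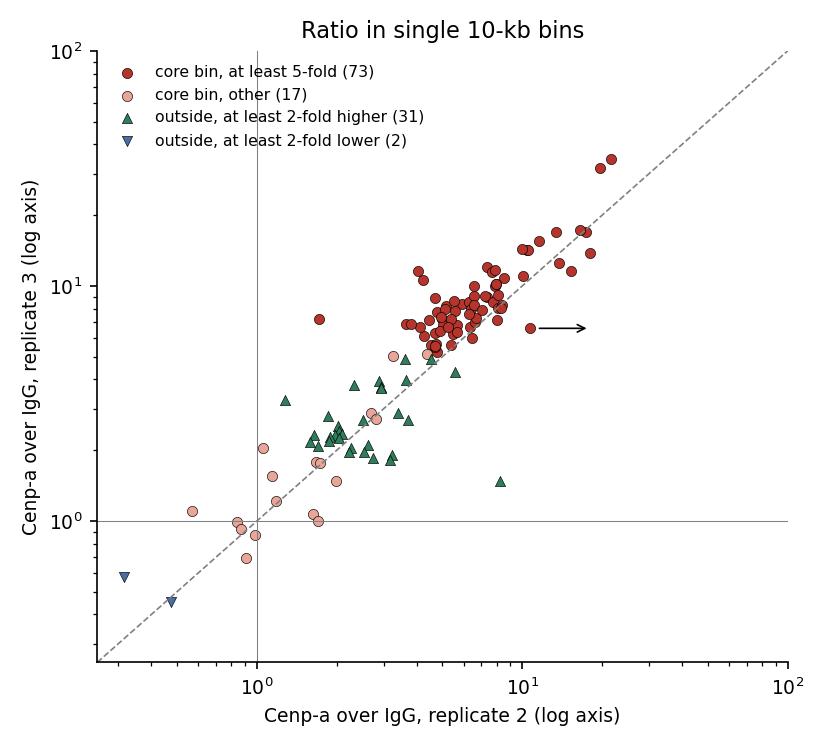
Ratio of Cenp-a to IgG in replicate 2 (horizontal, log axis) and in replicate 3 (vertical, log axis) for the 90 core bins, the 31 bins outside the cores at least 2-fold higher in Cenp-a, and the 2 bins at least 2-fold lower. The dashed line marks equal ratios, and the arrow marks the called bin with 0 counts in IgG replicate 2, drawn at 10.6, its ratio against 3 IgG counts. The 73 called bins all lie above 5.23 in replicate 3 but spread down to 1.72 in replicate 2.

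The replicates ranked the core bins alike. Over the 90 core bins the log2 ratios of replicates 2 and 3 had a Pearson correlation of 0.869, given as a description since neighbouring bins share satellite and libraries. Over the 144651 tested bins outside the cores the correlation was 0.222, and over 1448 windows of 1 Mb it was 0.880, again as descriptions. What single bins lack in agreement outside the cores is thus present at the scale of megabases.

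Within the cores, 17 of 90 bins were not called. Most of these had not passed the 5-fold limit in replicate 1 and belong to the cores only through the joining. The core of chromosome 7, the widest at 250 kb, holds 10 of them in a row from 60394911 to 60494910. In these 10 bins together Cenp-a had 3766 and 64968 counts in replicates 2 and 3, against 1211 and 30454 counts for IgG. The ratio was 0.928 in replicate 2 and 1.00 in replicate 3. The stretch lies between 13 called bins on its left and 2 on its right, and in the 15 called bins of the core the ratio was 6.53 and 8.35. It contains the bin from 60474911 to 60484910, at which IgG replicate 2 stood 37.0 times above its median bin. Cenp-a held 2585 and 43836 counts there, against 888 and 22332 counts for IgG, which is a ratio of 0.869 in replicate 2 and 0.921 in replicate 3. This bin sets the sum, and without it the ratio of the other 9 was 1.09 in replicate 2 and 1.22 in replicate 3. With no fold minimum 3 of the 10 bins, which start at 60394911, 60434911 and 60444911, were higher in Cenp-a at an adjusted p under 0.05 (edgeR's quasi-likelihood test) and 0 lower.

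**Figure D3:**
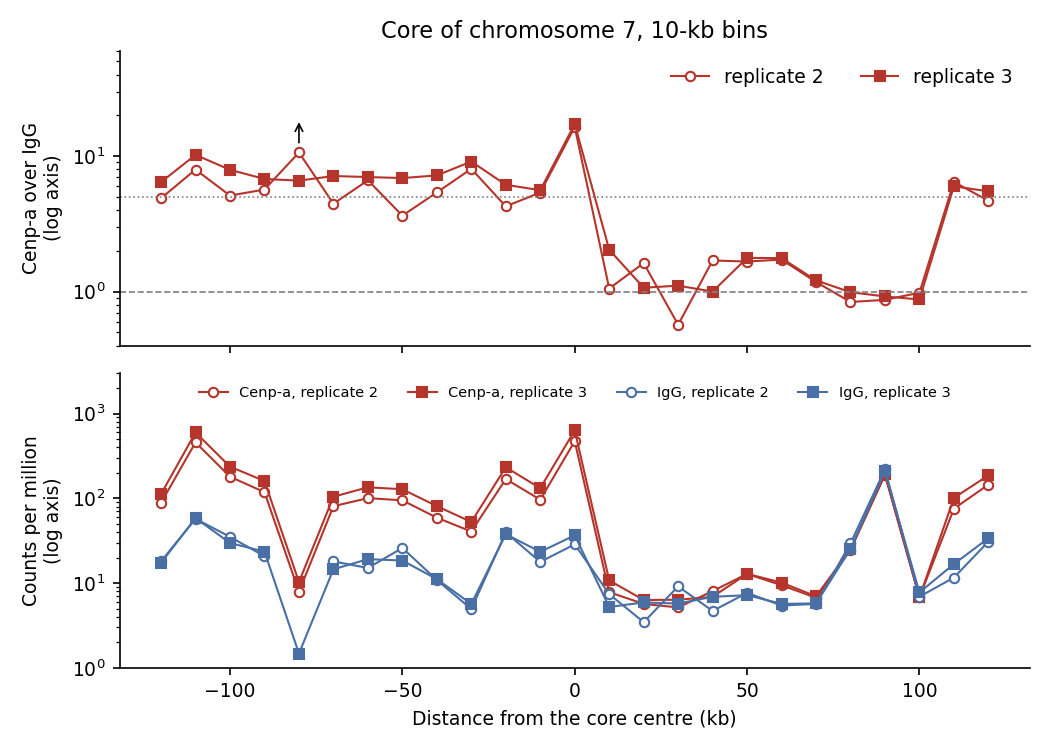
The core of chromosome 7 by distance from its centre (kb). The upper panel gives the ratio of Cenp-a to IgG per 10-kb bin on a log axis for replicate 2 (open circles) and replicate 3 (filled squares), with a dashed line at 1 and a dotted line at 5. An arrow marks the bin with 0 counts in IgG replicate 2, drawn at its ratio against 3 IgG counts. The lower panel gives CPM on a log axis for Cenp-a (red) and IgG (blue), in which the bin with 0 counts in IgG replicate 2 is not drawn. To the right of the centre 10 bins have ratios of 0.570 to 1.72 in replicate 2 and 0.875 to 2.04 in replicate 3, and there the 2 antibodies share the same peak of counts.

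The other bins that were not called fall into 2 kinds. In the core of chromosome 10, 3 bins from 21221474 to 21251473 hold few reads, down to 8 and 68 counts in Cenp-a replicates 2 and 3 against 1 and 18 counts in IgG replicates 2 and 3. Their ratios were also low, from 0.905 to 1.99 in replicate 2 and from 0.693 to 1.56 in replicate 3. Of the remaining 4, the bin that starts at 89207366 on chromosome 1 (log2 fold change 2.31) and the bin that starts at 73105893 on chromosome 6 (2.14) lie just under the limit of 2.32. No other uncalled core bin had passed the limit in replicate 1, where these had ratios of Cenp-a to input of 6.27 and 6.19. The other two lie on chromosome 8, from 21491474 to 21511473, with ratios of 2.70 to 2.87 in the replicates. Called bins made up 11 of 11 on chromosome 2, 7 of 7 on chromosome 3, 3 of 3 on chromosome 4, 6 of 6 on chromosome 5 and 5 of 5 on chromosome 9.

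The excess of Cenp-a ended close to the core edges. In the 20 bins next to the cores, on both sides, the ratio of summed shares was 1.47 in replicate 2 and 1.99 in replicate 3. It was 1.45 and 1.60 in the second bin from the edge, 1.25 and 1.24 in the third, and 1.02 and 0.993 in the fourth. From there to 300 kb it stayed between 0.838 and 1.14 in replicate 2 and between 0.926 and 1.02 in replicate 3. The median of the 20 bins next to the cores was 1.12 in replicate 2 and 1.08 in replicate 3, so the excess there comes from a few of them. Of these 20 bins, 5 were called at 2-fold, and the highest was the bin from 16770983 to 16780982 on chromosome 3, with 547 and 11916 counts in Cenp-a replicates 2 and 3, against 29 and 1296 counts in IgG replicates 2 and 3 (log2 fold change 2.19).

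**Figure D4:**
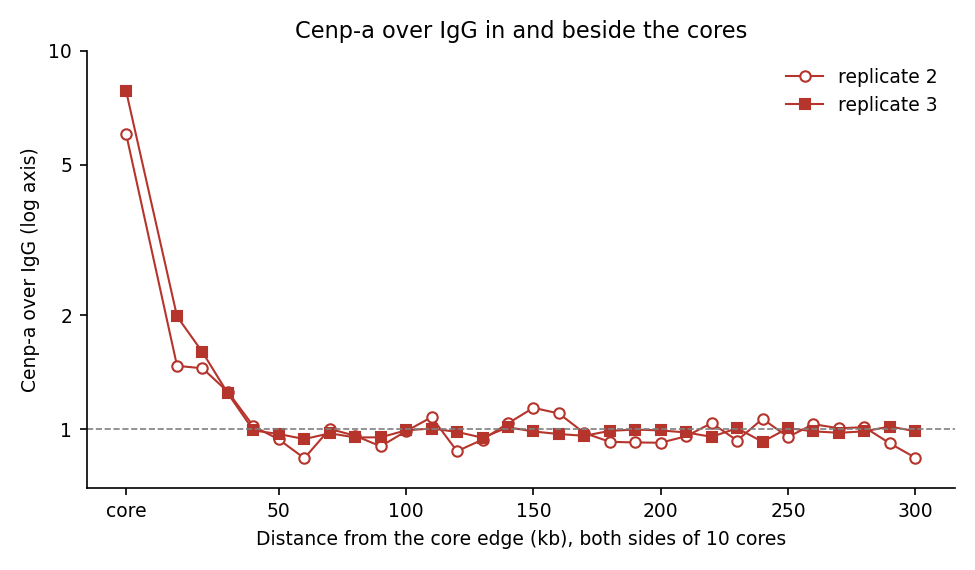
Ratio of Cenp-a to IgG (log axis), from summed shares, in the 10 cores and in 10-kb steps away from both edges, with open circles for replicate 2 and filled squares for replicate 3. The ratio drops to 1.02 and 0.993 by the fourth step, 40 kb from the edge, in replicates 2 and 3.

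The cores are poor in genes. RefSeq places no gene in 8 of the 10 cores. The exceptions are LOC116406480 on chromosome 4 and the protein-coding gene LOC108647623 on chromosome 5. On chromosome 7, ftsj3, a gene of ribosomal RNA processing, lies 22.2 kb from the core edge. On chromosome 2 the nearest genes are 107.3 kb away (plekha6) and 108.1 kb away (mdm4, an inhibitor of p53). By class, 71 of the 73 called bins overlap no gene, beside 37.0% of all tested bins on chromosomes.

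Away from the cores the 31 bins at least 2-fold higher (adjusted p under 0.05, edgeR's quasi-likelihood test) form 2 sets. Within 50 kb of a core lie 11 of them, and the other 20 are more than 500 kb from any core, with 8 on chromosome 4 and 4 on chromosome 3. All 31 had a ratio above 1 in both replicates, which follows largely from their selection in these same libraries. In the 20 distant bins the log2 fold change ran from 1.00 to 2.26 and the ratio from 1.28 to 8.23 in replicate 2 and from 1.48 to 4.89 in replicate 3. The highest and the lowest of these, 8.23 and 1.48, belong to 1 bin, on chromosome 6 from 40302947 to 40312946. It held 120 and 1478 counts in Cenp-a replicates 2 and 3, against 4 and 464 counts in IgG replicates 2 and 3, so its replicate 2 ratio rests on 4 IgG counts (95% counting interval 3.41 to 33.4). Their names were chosen after their values were seen, since the rule for named bins asked for 5-fold.

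The highest distant bins are 2 neighbours on chromosome 4, from 17711474 to 17731473, both within the protein-coding gene LOC108647437. The left bin held 842 and 18310 counts in Cenp-a replicates 2 and 3, against 55 and 1757 counts in IgG replicates 2 and 3. The right one held 766 and 17476 Cenp-a counts, against 63 and 1669 IgG counts. The ratios were 4.55 and 4.87 in the left bin and 3.61 and 4.89 in the right bin, and the log2 fold change of the left bin was 2.26 (standard error 0.118). Every Cenp-a value lay at least 3-fold above its IgG partner and both bins lay just under the limit of 2.32. Their ratios of Cenp-a to input in replicate 1 were 6.41 and 6.85, so they also passed the limit used to locate the cores. Farther along chromosome 4, a group of 5 bins from 33742456 to 33842455 was higher at an adjusted p under 0.05 with no fold minimum, with ratios of 2.14 in replicate 2 and 2.27 in replicate 3. Over all 10 bins of the region it was 1.57 and 1.73, and its last bin had a ratio of Cenp-a to input of 6.08 in replicate 1. A long noncoding RNA gene, LOC105947280, is the only gene annotated in it.

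Of the 20 distant bins, 15 (75%) overlap a protein-coding gene, beside 1 of the 11 bins near the cores and 60.3% of all tested bins on chromosomes. For so few bins 75% is close to 60.3%, and the difference was not tested. Among these genes are eef1a1, the elongation factor that brings aminoacyl-tRNA to the ribosome, dusp1 and dusp5, phosphatases that inactivate MAP kinases, slc38a2, an amino acid transporter, ldlr, the receptor for low-density lipoprotein, and f3, the tissue factor that starts blood coagulation. The bin of eef1a1 held 144 and 2806 counts in Cenp-a replicates 2 and 3, against 26 and 561 counts in IgG replicates 2 and 3. That of dusp1 held 190 and 3547 Cenp-a counts, against 27 and 707 IgG counts. Their ratios were 1.64 and 2.32 for eef1a1 and 2.08 and 2.33 for dusp1, so both replicates were higher but well below the cores.

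H4 was also high over input in most of these distant bins. H4 over input in replicate 1 was at least 1.5 in 16 of the 20, with a median of 1.9 and a range of 1.22 to 5.49, while it was at least 1.5 in 3.52% of all tested bins outside the cores, with a median of 1.01. In the 11 bins near the cores it was at least 1.5 in 6, with a median of 1.53. Across the highest bins of the cores, H4 over input in replicate 1 ran from 1.23 on chromosome 8 to 3.75 on chromosome 3. High H4 was thus not particular to the distant bins. The input library of these core ratios had also located the cores. H3 over input had a median of 1.09 in replicate 2 and 1.37 in replicate 3 in the distant bins, and of 1.01 and 1.26 in those near the cores. The part of bulk nucleosome recovery in the distant bins was not tested. The bin with the highest H4, on chromosome 2 from 91437366 to 91447365, overlaps vmp1, which encodes an autophagy protein, and held 120 and 3413 counts in Cenp-a replicates 2 and 3, against 28 and 484 counts in IgG replicates 2 and 3. Its ratio was 1.28 in replicate 2 and 3.26 in replicate 3.

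Some short-RNA genes had more higher bins than the background, and the number of bins is small. Of 413 tested bins with a tRNA gene, 9 were higher with no fold minimum (2.18%) and 0 lower, beside 0.172% of all bins tested. Of 241 bins with an snRNA or snoRNA gene, which serve splicing and the processing of ribosomal RNA, 8 were higher (3.32%) and 1 lower. Of 87244 bins overlapping a protein-coding gene, 119 were higher (0.136%) and 208 lower (0.238%). The tRNA genes lie in arrays, so their bins are not independent. The median log2 ratio of the tRNA bins was 0.03 in replicate 2 and -0.06 in replicate 3, so the class as a whole did not stand above IgG.

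Only 2 bins were at least 2-fold lower in Cenp-a than in IgG. The bin on chromosome 9 from 72235893 to 72245892 held 61 and 930 counts in Cenp-a replicates 2 and 3, against 39 and 982 counts in IgG replicates 2 and 3, with a log2 fold change of -1.15. The bin on chromosome 7 from 123230312 to 123240311 held 54 and 913 Cenp-a counts, against 52 and 747 IgG counts, with a log2 fold change of -1.09. The ratio was 0.472 and 0.450 in the first of these bins and 0.315 and 0.580 in the second. Neither was called by DESeq2.

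The 510 lower bins found with no fold minimum had small differences, with log2 fold changes from -1.15 to -0.30 and a median of -0.59. All 510 were lower in both replicates, which follows largely from their selection in these same libraries. They concentrated at the chromosome ends, since 185 (36.3%) lay within 5 Mb of an end, where 6.85% of the tested bins lie. They also lay in regions of many reads, with a median IgG level of 3.81 times the median bin in replicate 3, and such bins are the ones where a small difference can be detected. Joined at up to 200 kb, they formed 250 groups, of which 170 were single bins and 13 held at least 5 bins.

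The largest group lies on chromosome 8 from 13460983 to 16880982, with 63 lower bins in 342. In these 63 bins Cenp-a had 67698 and 1003100 counts in replicates 2 and 3, against 27379 and 670089 counts for IgG, and the ratio was 0.738 in replicate 2 and 0.703 in replicate 3. Over all 342 bins of the region, called or not, it was 0.844 and 0.809. In the 63 lower bins IgG stood at 13.7 and 12.6 times its median bin in replicates 2 and 3. RefSeq annotates 68 protein-coding and 64 long noncoding RNA genes in the whole region. Groups at the ends of chromosomes 5, 2 and 6 held 17, 13 and 9 lower bins. Over their whole spans the ratio was 0.790 and 0.726 on chromosome 5 (163523749 to 164023748), 0.790 and 0.709 on chromosome 2 (180875222 to 181025221) and 0.799 and 0.718 on chromosome 6 (1 to 190000). In the lower bins of these groups IgG stood at 32.3 to 36.3 times its median bin in replicate 3. A group of 14 lower bins lies 39.3 Mb from an end on chromosome 4 (39292947 to 39542946). The ratio was 0.769 and 0.699 in its lower bins and 0.800 and 0.727 over all 25 bins. In its lower bins IgG stood at 7.83 and 8.38 times its median bin. A group of 12 near the end of chromosome 8 (146492276 to 147182275) overlaps 22 genes of ribosomal RNA, with ratios of 0.709 and 0.686 in the lower bins and 0.808 and 0.746 over all 69 bins.

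The H3 pull-down was below IgG in the same bins. In replicate 3, H3 was below IgG in 510 of the 510, and in the group of chromosome 8 at 13460983 the ratio of H3 to IgG was 0.956 in replicate 2 and 0.724 in replicate 3, beside 0.738 and 0.703 for Cenp-a to IgG. These ratios share the IgG libraries. Cenp-a lay below input in 489 of 510 in replicate 2 and in 510 of 510 in replicate 3, and these counts reuse the Cenp-a libraries that chose the bins. Cenp-a of replicate 1, which was not used in the test, lay below its input in 510 of 510. IgG was above input in 317 of the bins in replicate 3 and in 474 in replicate 2, and these counts reuse the IgG libraries that chose the bins. The matching shares over all tested bins were not determined, so none of these counts is set against a background.

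High read levels did not always go with less Cenp-a. A group of 18 bins on chromosome 9 from 55544420 to 55824419, in which RefSeq places no gene, stood higher in Cenp-a at an adjusted p under 0.05, with log2 fold changes of 0.28 to 0.47. These bins had 72864 and 1433021 counts in Cenp-a replicates 2 and 3, against 17829 and 508377 counts in IgG replicates 2 and 3. The ratio was 1.22 and 1.32, and IgG stood at 39.9 and 44.3 times its median bin. Over all 28 bins of the region the ratio was 1.19 and 1.29. H3 over IgG was 1.26 and 1.27 in the 18 bins, so here too Cenp-a and H3 lay on the same side of IgG. Of the 376 tested bins outside the cores with at least 10 times the median input of replicate 1, 18 were higher and 122 lower. Among all tested bins outside the cores, 0.117% were higher and 0.353% lower. The median log2 ratio of the 376 bins was -0.19 in replicate 2 and -0.25 in replicate 3. Over all tested bins outside the cores it was 0.02 and 0.01. The 376 bins thus lay lower as a set, and not only in those called. Small differences are easier to detect in bins of many reads, and bins of the chromosome 9 group are counted among the 376. The ratio of the 376 bins in replicate 3 ran from 0.514 to 1.41. The cores, with IgG at 2.02 to 6.12 times the median bin, stood at 3.89 to 14.3 times IgG.

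Toward the chromosome ends the ratio fell gradually rather than in single bins. In the outermost 1 Mb the median log2 ratio was -0.25 in replicate 2 and -0.32 in replicate 3, and 70.4% and 93.6% of the bins lay below 0. Between 1 and 5 Mb from an end it was -0.18 and -0.24. In the rest of the chromosome arms it was 0.04 and 0.02. Within 500 kb of a core, the core left out, it was -0.01 and -0.03, and from 0.5 to 5 Mb it was -0.01 and -0.01, so the sequence around the centromeres was close to the arms.

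**Figure D5:**
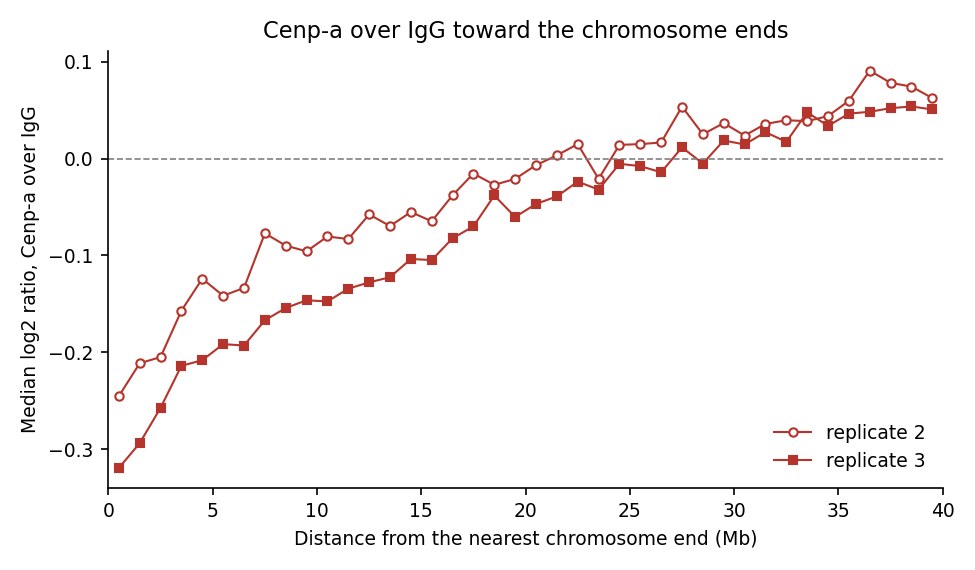
Median log2 ratio of Cenp-a to IgG in 1-Mb steps from the nearest chromosome end (horizontal, Mb), without the cores, for replicate 2 (open circles) and replicate 3 (filled squares). The median lies at -0.25 and -0.32 in the first step and at 0.06 and 0.05 between 39 and 40 Mb in replicates 2 and 3.

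A lower ratio in the outer 5 Mb than in the rest of the arms was present on every chromosome. The fall in 1-Mb steps was followed over all chromosomes together only. The median log2 ratio of the outer 5 Mb minus that of the rest of the arms ran from -0.26 to -0.15 in replicate 2 and from -0.30 to -0.18 in replicate 3 over the 10 chromosomes, with chromosomes 9 and 10 at the small end. In replicate 3 Cenp-a lay below and IgG above its library's median there. In the outermost 1 Mb the median bin stood at 0.937 times the library's median in Cenp-a replicate 3, against 1.18 times in IgG replicate 3. In replicate 2 it stood at 1.01 times in Cenp-a, against 1.21 times in IgG. Beside these, H3 stood at 1.15 and 0.935 times in replicates 2 and 3, and input at 1.13 and 1.18 times. H3 of replicate 3 thus lay near Cenp-a and H3 of replicate 2 near IgG and input.

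Of the 106 scaffold bins tested, edgeR called 0 at any fold, and the unadjusted p was under 0.05 for 1 higher and 11 lower bins. Their median log2 ratio was 0.02 in replicate 2 and -0.20 in replicate 3, and both pull-downs were below their median bin there, at 0.457 and 0.481 times in Cenp-a replicates 2 and 3, against 0.50 and 0.505 times in IgG replicates 2 and 3.

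How much each IgG library can show differs widely. With replicate 3 alone and no test, 75 bins were at least 5-fold higher (0.0518% of the bins tested), all of them core bins, and 0 lower. At 2-fold 0.0767% were higher and 0.00967% lower. With replicate 2 alone 269 bins were at least 5-fold higher (0.186%), of which 54 were core bins and 215 lay elsewhere, and 17 lower (0.0117%). At 2-fold, 4.43% of the bins were higher and 1.34% lower. These 215 had a median of 2 counts in IgG replicate 2 and 29 at most, and in replicate 3 none of them exceeded a ratio of 4.29. The shallow IgG library thus separates the cores from the rest of the genome in sum, with a ratio of 6.03, but not bin by bin.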

How the data were processed

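Per the labels and the study's methods, the authors trimmed read pairs with Trimmomatic (0.39), aligned them with minimap2 (2.17-r941) to the unmasked v10 genome, sorted them with SAMtools (1.9) and made the deposited counts per 10-kb bin with multiBamSummary of deepTools (3.3.0) at a mapping quality of 0 or more. Removal of duplicates is not given in the sources used here, and a pair can contribute 2 counts.

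Library size was the total on the 10 chromosomes. Chromosome numbers came from matching last bins with the last RefSeq gene of UCB_Xtro_10.0 (difference at most 182731 bp), and genes from the same table. Since it gives no strand, bins holding gene starts were not listed. No sequence was used here.

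Bins were tested with edgeR (4.0.16 in R 4.3.3, with robust glmQLFit and glmQLFTest) and the replicate number as a block, since the series gives each replicate its own controls. The peak-calling command that the study prints is named for H3 against input in replicate 2, so the control there was input and not IgG. Deviations from the group means of same-numbered Cenp-a and IgG libraries correlated at 0.028, so the pairing comes from the labels and not from the counts. The spread of each bin was in effect that of all bins (infinite prior degrees of freedom in edgeR), so standard errors may be too small for bins that vary more, and p-values cover the spread between these libraries only. Standard errors were derived as the size of the log2 fold change over the square root of its quasi-likelihood F statistic. The fit was tested on simulated data with the same spread for all bins, so that test does not cover bins that vary more. There 100 of 100 bins set at 8-fold were called at 5-fold. Of those set at 2-fold, 76 of 100 had an adjusted p under 0.05 (edgeR's quasi-likelihood test), as had 10 of 144524 unchanged bins. Counting intervals of ratios in single bins and in cores are exact binomial intervals.

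Alternatives were DESeq2 (1.42.0), TMM factors, other filters and fold limits, thinning to the shallowest library, a fit without the block, other core definitions and single replicates. The text names, by rule, each core and its highest bin, bins called at 5-fold outside the cores and bins called lower; other bins were named after their values were seen. Bins, zones, gene lists and limits were chosen with earlier results of these data known.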

Additional observations from a re-analysis of the deposited data

How the results depend on the processing

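With at least 5-fold required, the number of higher bins was 73 with TMM factors and without the filter on low counts, 72 without the replicate block and with all groups of replicates 2 and 3 in the fit, 69 after thinning, and 68 with DESeq2 and with at least 10 counts in each library. All 72 bins found without the replicate block, all 68 found with DESeq2 and 68 of the 69 found after thinning were among the 73. Lower bins stayed at 0 in each of these fits. Leaving out 1 replicate, with no test, gave 75 to 269 higher and 0 to 17 lower bins at 5-fold, and 111 to 6415 higher and 14 to 1942 lower at 2-fold; the larger numbers are those of replicate 2 alone, whose IgG library has a median of 24 counts per bin. The counts without a fold minimum depend on the fit more than those at 5-fold. With at least 2-fold, 2 bins were lower. With no fold minimum 249 were higher and 510 lower, against 179 higher and 173 lower without the replicate block, and 151 higher and 749 lower with DESeq2. These last fits without a fold minimum were chosen after the data were seen. Of the 510, 171 were also lower without the replicate block, 422 with DESeq2 and 125 after thinning, and 30.6% to 37.3% of the lower bins lay within 5 Mb of an end in these 3 settings. The cause of the difference between fits was not tested.

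The mean core ratio of 6.93 lay between 6.54 and 8.01 under other core definitions and scalings, 8.01 being that with bins joined at up to 50 kb, which leaves out the 10 bins of chromosome 7 that were not called and the 2 called bins beyond them. Scaled by the median bin, the median log2 ratio was -0.042 within 500 kb of a core, -0.029 at 0.5 to 5 Mb and 0.011 in the rest of the arms, so the sign of these small values carries no weight. On the unplaced scaffolds it was -0.09 over both replicates and -0.20 to 0.020 when 1 replicate was left out, which turned its sign. The median log2 ratios of the outermost 1 Mb and of 1 to 5 Mb from an end stayed below 0 under each alternative run for them. Of the named bins, that of chromosome 8 at 21371474 was not called by DESeq2 (log2 fold change 3.29) and fell under 5-fold without replicate 3 (2.08). That of chromosome 4 at 17711474 passed 5-fold after thinning (2.37), and that of chromosome 3 at 16770983 did so without replicate 3 (2.48).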
